A study of Rattus norvegicus with 24 samples.

Results

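The effect of IS141 on gene expression in rat cortical cultures without added glutamate was examined in 6 of the 24 libraries of the series, chosen by their titles: 3 libraries from cultures given IS141 and 3 from cultures given DMSO. Both groups were cultures of rat cortical cells, kept for 8 days in 6-well plates, that then received fresh growth medium in place of the old medium and were followed by live-cell imaging over 4 h. IS141 is a code name, and the labels give neither its nature nor its dose or timing. DMSO is a solvent in which small molecules are commonly dissolved, and it is the control here. Matched cultures received 250 μM glutamate with IS141 or DMSO, and 2 further agents, AH609 and AH236, were given in medium and in glutamate, with 3 libraries in each of the 8 groups. Nothing in the labels says that replicates came from separate cultures, and the p-values therefore cover only the spread among the libraries at hand, which may be technical.

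Glutamate is the main excitatory transmitter of the cortex. It opens receptor channels that let calcium into the neuron, and this switches on a transcriptional programme that begins with immediate early genes, which encode transcription factors, and goes on to genes that act at synapses and in survival or death. Excess glutamate injures neurons, which is called excitotoxicity, and protein kinases carry much of the signal from calcium to both outcomes. Cultured cortical neurons are also active without added glutamate, so part of this programme can run in plain medium. The deposited table lists Ensembl rat gene IDs without names, and the reference tables used here paired 0 of them with a symbol. The genes below are therefore described by their level and by their response to glutamate, 4 of them are given by ID, and neither known pathways nor cell type markers could be checked.

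The 3 IS141 libraries held between 24795819 and 27976984 counts, against 26008125 to 30001744 in the DMSO libraries. The IS141 libraries resembled one another, with correlations across genes between 0.99255 and 0.9938, while DMSO replicate 1 stood apart from its group. It correlated with the other DMSO libraries at 0.98277 and 0.9823, against 0.99402 between DMSO replicates 2 and 3. On the first principal component of the 12 medium libraries, which carried 27.7% of the variance of log2 CPM (counts per 1000000), DMSO replicate 1 had a score of 48.9. The IS141 libraries followed at 8.08, 9.35 and 13.3, and DMSO replicates 2 and 3 lay at -11.6 and -10.1. On the second component, with 13.5% of the variance, DMSO replicate 1 lay on the side of its own group. The DMSO libraries had scores of -14.9, -23.1 and -20.6 there, against 7.9, 22.3 and 9.61 for the IS141 libraries. The median SD of a gene's log2 CPM was 0.093 among the IS141 libraries, and 0.152 among all DMSO libraries or 0.0763 between DMSO replicates 2 and 3. DMSO replicate 1 was at least 2-fold above both other DMSO libraries for 521 of 15908 genes and at least 2-fold below both for 161. Results are given with and without it.

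IS141 altered many genes by small amounts, and with all libraries the larger changes were mostly rises. Of 15908 genes tested, IS141 raised 713 (4.48%) and lowered 556 (3.5%) relative to DMSO at an adjusted p under 0.05 (edgeR quasi-likelihood test, Benjamini-Hochberg adjustment), which together were 7.98% of the genes tested. The median change of the called genes was 0.32 on the log2 scale in either direction. A change of at least 1.5-fold was found for 183 rises and 48 falls, of 2-fold or more for 61 rises (0.383% of the genes tested) and 14 falls (0.088%), and of 4-fold or more for 8 rises and 2 falls. As bulk RNA was measured, fewer cells of a type and less RNA per cell cannot be told apart for any of these genes.

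When DMSO replicate 1 was left out, IS141 raised 1157 genes (7.18%) and lowered 776 (4.81%), or 12% of 16119 genes tested. There were then 228 rises (1.41%) and 13 falls (0.0807%) of 2-fold or more, and 40 rises and 2 falls of 4-fold or more. Of the genes called with all libraries, 577 of the 713 higher (80.9%) and 373 of the 556 lower (67.1%) were called again in the same direction, and 0 were called in the opposite one. These were 49.9% of the higher and 48.1% of the lower genes of the longer lists. Among changes of at least 2-fold, 55 rises and 5 falls were common to both. The excess of rises among these depended on DMSO replicates 2 and 3: there were 35 rises and 31 falls of 2-fold or more without DMSO replicate 2, and 49 rises and 45 falls without DMSO replicate 3. Without IS141 replicate 2 there were 36 and 7. Single IS141 libraries also moved the total of 1269 called genes, to 563 without IS141 replicate 2 and to 798 without IS141 replicate 3. When only the 6 compared libraries were fitted, 46 genes were higher and 16 lower. The same fit without DMSO replicate 1 gave 1114 higher and 734 lower. The cause of this shift was not tested.

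**Figure D1:**
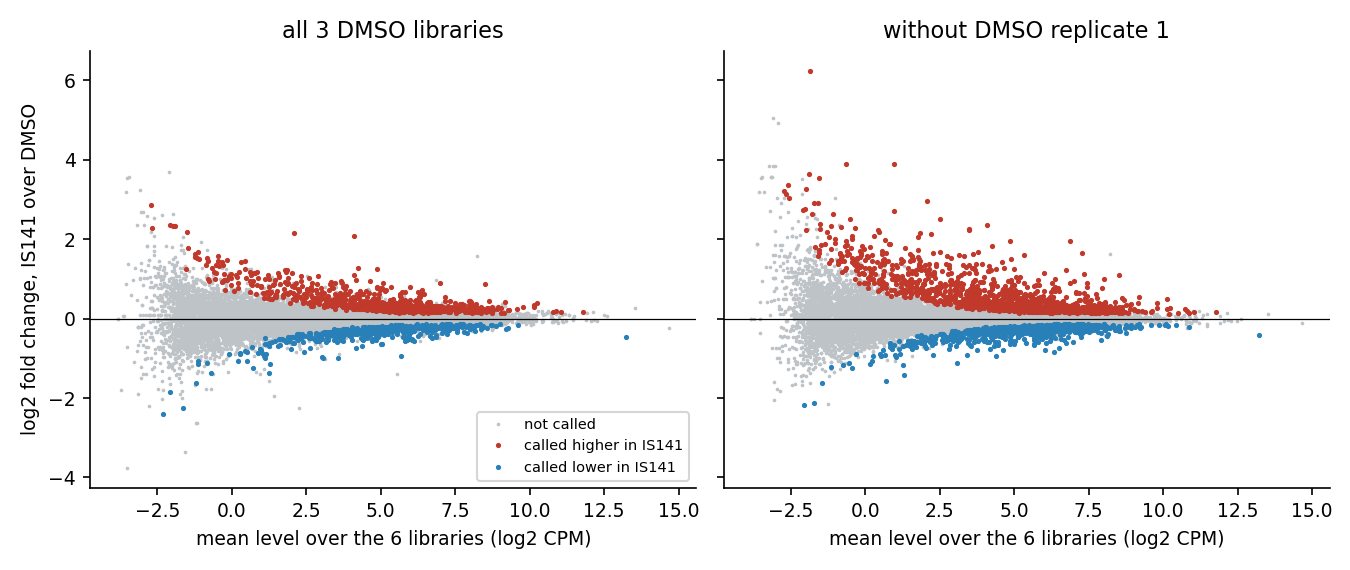
Each point is a gene, with its mean level over the 6 libraries (log2 CPM) on the horizontal axis and the log2 fold change of IS141 over DMSO in medium on the vertical axis. Left, all 3 DMSO libraries, with 713 genes called higher (red) and 556 lower (blue). Right, without DMSO replicate 1, where more genes of low and middle level rise by 2-fold or more.

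**Figure D2:**
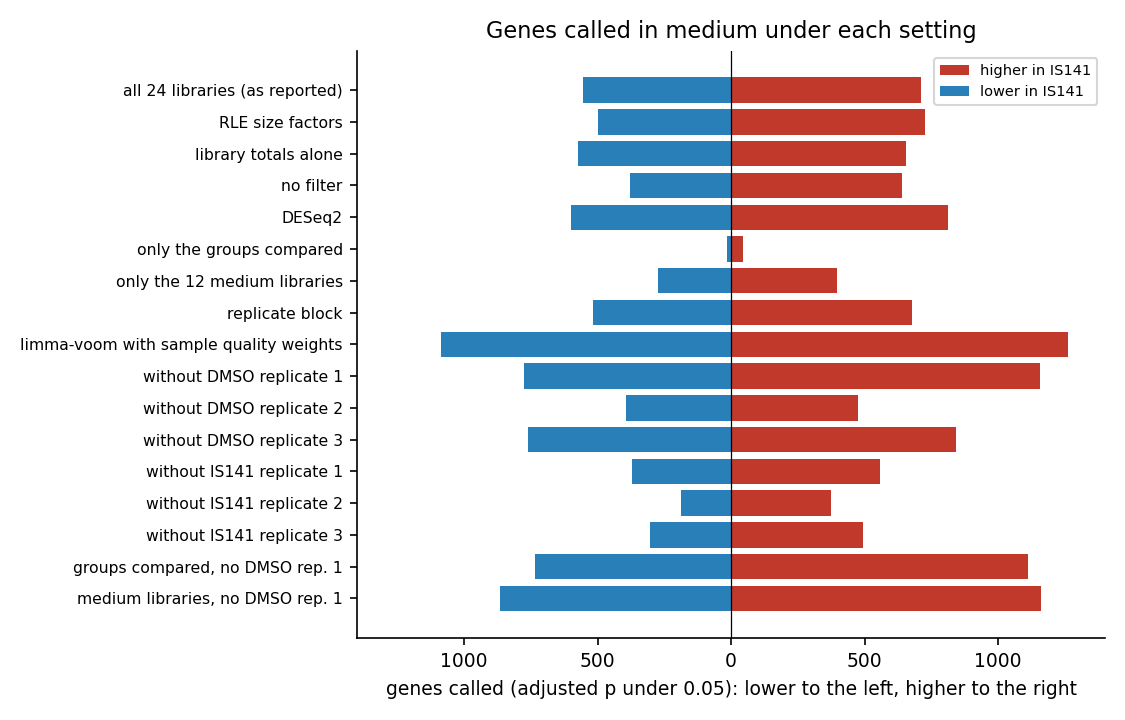
Bars give the number of genes called in medium under each setting, lower in IS141 to the left and higher to the right, with the reported fit in the top row. Rises outnumber falls in every row, and the fit of the compared groups alone stands out with 46 and 16 genes.

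The number of genes whose libraries did not overlap was counted without a model. All 3 IS141 libraries lay above all 3 DMSO libraries for 1619 genes and below them for 1812, which together were 21.6% of the genes tested, beside the 7.98% that were called. With 3 against 3 libraries and no difference between groups, a gene separates in either direction with a probability of 0.1. The 21.6% is thus no count of affected genes. Of the called genes, 667 higher and 521 lower had separate groups, and 81 overlapped. These genes were called on the same libraries, so a high share of separate groups among them follows from the choice. DMSO replicate 1 was nearer to the IS141 mean than to the mean of DMSO replicates 2 and 3 for 181 of the 713 higher and 66 of the 556 lower genes. The calls used DMSO replicate 1, which selects against such genes, and the share over all genes tested was not counted. These numbers therefore cannot show how often that library lay on the IS141 side.

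The calls spread over the whole range of expression, while large fold changes lay among weakly expressed genes. Of 2026 genes with a mean of at least 100 CPM over the 6 libraries, 146 were higher and 96 lower, or 11.9%, and 0 changed by 2-fold. Among 6853 genes between 10 and 100 CPM, 387 rose and 355 fell (10.8%), and 4 rises and 0 falls reached 2-fold. Between 1 and 10 CPM, 142 of 4373 genes were higher and 96 lower (5.44%), and 28 rises and 6 falls reached 2-fold. Under 1 CPM, 38 of 2656 genes were higher and 9 lower (1.77%), and 29 rises and 8 falls reached 2-fold. The share called was thus lower in the classes of lower level, which also rest on fewer counts per gene. The part of depth in this was not tested.

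By abundance, the genes called higher took 7.08%, 7.30% and 7.10% of all counts in the IS141 libraries, against 5.97%, 5.86% and 6.00% in the DMSO libraries. The genes called lower took 4.39%, 4.23% and 4.17% with IS141, against 5.48%, 5.30% and 5.00% with DMSO. These genes were chosen on the same libraries, so the shares show only how much of the RNA is involved. At this depth 0 genes had 10 or more counts in each IS141 library and no count in any DMSO library, and 0 showed the reverse.

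Of the genes whose mean log2 CPM was 1 or more, 825 were called both with and without DMSO replicate 1 and had groups that did not overlap. IS141 raised 481 of them, 17 by 2-fold or more, and lowered 344, 3 by 2-fold or more. The largest rise in this set was that of ENSRNOG00000016163. Its level was 7.84, 14.4 and 7.18 CPM in the IS141 libraries, against 4.08, 1.64 and 0.921 CPM in DMSO replicates 1, 2 and 3. Every IS141 library lay above every DMSO library, which the choice required, and DMSO replicate 1 was the nearest to them. The log2 fold change was 2.15 ± 0.33 (SE; edgeR adjusted p = 0.000638), and 2.95 ± 0.33 without DMSO replicate 1. In the fit of the compared groups alone the change kept its size, at 2.16, but not the call (adjusted p = 0.22), and likewise without DMSO replicate 1 in that fit (2.96, adjusted p = 0.0728).

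This gene was also above DMSO with the other agents, at 9.71, 6.83 and 7.54 CPM with AH609 and 6.78, 6.84 and 6.43 CPM with AH236 in medium. The IS141 range overlapped that of AH609, and IS141 did not pass the test against the mean of both agents (log2 difference 0.42 ± 0.24 (SE), edgeR adjusted p = 0.33). These comparisons with DMSO share the same 3 DMSO libraries.

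The second largest rise, that of ENSRNOG00000020009, differed from both other agents. Its level was 31.1, 32.2 and 43.1 CPM with IS141, against 11.1, 7.40 and 6.57 CPM with DMSO, 12.9, 11.0 and 19.7 CPM with AH609, and 10.1, 11.1 and 11.6 CPM with AH236. Every IS141 library lay above all the other medium libraries. The log2 fold change over DMSO was 2.08 ± 0.19 (SE; edgeR adjusted p = 4.46e-06), and over the mean of AH609 and AH236, where no DMSO library enters the contrast, 1.49 ± 0.15 (SE; adjusted p = 4.67e-05). Against each agent alone it was 1.29 ± 0.18 for AH609 (SE; adjusted p = 0.00442) and 1.69 ± 0.19 for AH236 (SE; adjusted p = 6.13e-05). In glutamate the gene reached 1509, 1550 and 1445 CPM with IS141, against 1158, 1362 and 1221 CPM with DMSO, so the level in IS141 medium cultures was small beside that after glutamate.

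The largest fall in the set belonged to ENSRNOG00000051572, a weakly expressed gene. Its level was 1.48, 1.51 and 1.42 CPM with IS141, against 4.89, 4.40 and 2.27 CPM in DMSO replicates 1, 2 and 3. The IS141 libraries lay close together, on 38 to 45 counts each, while DMSO replicate 3 lay well below the other DMSO libraries. The log2 fold change was -1.38 ± 0.30 (SE; edgeR adjusted p = 0.00547), and -1.16 ± 0.32 without DMSO replicate 1 (adjusted p = 0.0166). With AH609 the gene stood at 1.24, 2.04 and 1.81 CPM and with AH236 at 3.19, 1.82 and 2.31 CPM, and IS141 did not pass the test against their mean (-0.46 ± 0.28, adjusted p = 0.351).

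ENSRNOG00000004731 followed, with 1.58, 1.70 and 1.65 CPM in IS141 libraries, against 2.13, 4.58 and 4.21 CPM in DMSO libraries. Here DMSO replicate 1 was the lowest of its group and the nearest to IS141, without overlap, which the choice required. The log2 fold change was -1.15 ± 0.20 (SE; edgeR adjusted p = 0.000638), and -1.42 ± 0.16 without DMSO replicate 1. The other agents gave 2.04, 2.12 and 2.23 CPM with AH609 and 3.16, 2.96 and 2.64 CPM with AH236, all above the IS141 libraries. Against the mean of both the log2 difference was -0.60 ± 0.19 (SE; adjusted p = 0.0475). Against AH609 alone it did not pass, at -0.38 ± 0.22 (SE; adjusted p = 0.437), while against AH236 it was -0.83 ± 0.20 (SE; adjusted p = 0.0126). When the compared groups were fitted alone, neither this gene (adjusted p = 0.132) nor ENSRNOG00000051572 (adjusted p = 0.0987) was called.

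**Figure D3:**
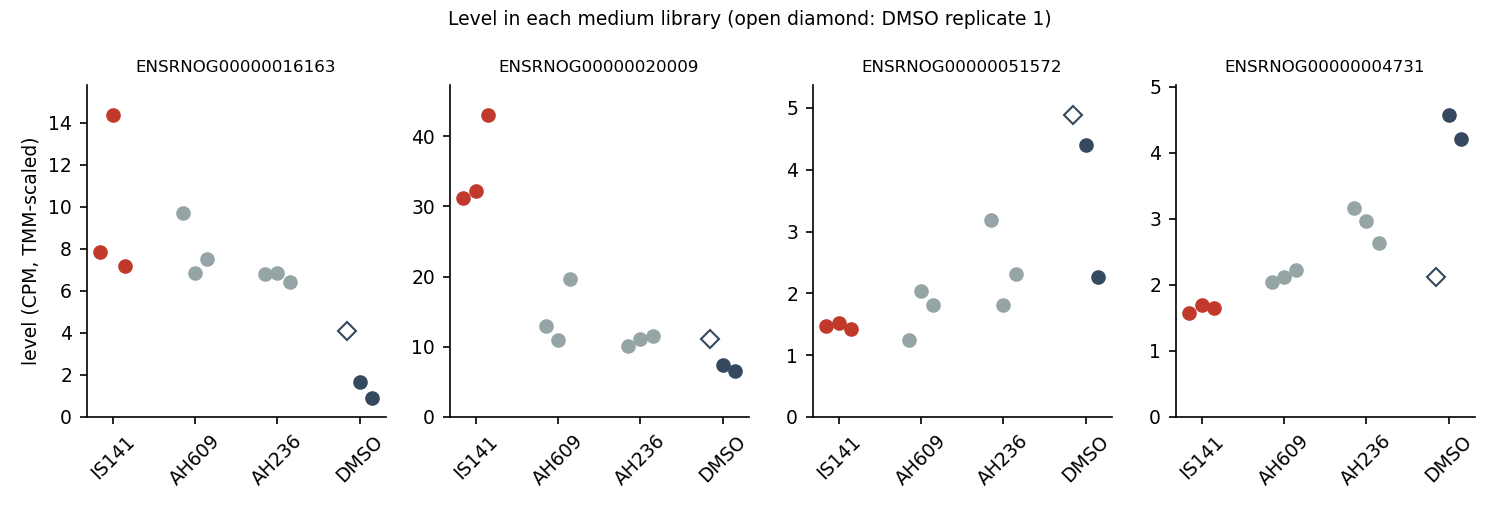
Level in CPM of the 4 genes in each medium library, one panel per gene, with IS141 in red, AH609 and AH236 in grey and DMSO in dark blue, and DMSO replicate 1 as an open diamond. With IS141 the genes that rose lie above all DMSO libraries and those that fell lie below them, which the choice of the genes required. ENSRNOG00000020009 stands clear of the AH609 and AH236 libraries too, as ENSRNOG00000004731 does by a small step. For ENSRNOG00000004731 the test against AH609 alone did not pass.

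The genes that IS141 altered were then read against the response to glutamate. The response was taken from the AH609 and AH236 cultures, glutamate over medium, whose libraries are neither IS141 nor DMSO libraries. In them 5565 genes were raised and 5725 lowered, or 71% of the genes tested. Genes that glutamate raised by 2-fold or more were more often higher with IS141 in plain medium than genes at large. Of 222 genes raised 8-fold or more, 30 were called higher with IS141 (13.5%) and 0 lower, beside 4.48% higher and 3.5% lower among all genes tested. Of 274 genes raised 4- to 8-fold, 42 were higher (15.3%) and 4 lower, and of 1001 raised 2- to 4-fold, 113 were higher (11.3%) and 10 lower. Genes raised by less than 2-fold were higher in 294 of 4068 cases (7.23%) and lower in 74. Those counts were 153 and 29 without IS141 replicate 2, beside 375 higher and 188 lower among all genes tested. The 74 lower were 38 without IS141 replicate 3 and 46 without IS141 replicate 1, beside 304 and 372 lower among all. They were 118 without DMSO replicate 3, beside 760 lower among all genes tested. The 4618 genes that did not pass the glutamate test held 113 higher and 85 lower. The median log2 fold change of IS141 over DMSO was 0.26, 0.14, 0.11 and 0.03 in the raised classes in falling order of the response, and -0.01 over all genes tested. This order was not kept without DMSO replicate 2, with medians of 0.08 in each of the classes raised by 2-fold or more and 0.03 below that, nor without DMSO replicate 3, with 0.04, 0.07, 0.07 and 0.03. The medians were 0.94, 0.45, 0.21 and 0.03 without DMSO replicate 1.

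Genes lowered by glutamate went the other way. Of 903 genes lowered 2- to 4-fold, 70 were called lower with IS141 (7.75%) and 14 higher, and of 4756 lowered by less than 2-fold, 309 were lower (6.50%) and 105 higher. In this large class 106 were lower and 47 higher without IS141 replicate 2, beside 188 lower and 375 higher among all genes tested. It held 165 lower without IS141 replicate 3 and 190 without DMSO replicate 2, beside 304 and 394 lower among all genes tested. The median log2 fold change was -0.13 for genes lowered 2- to 4-fold and -0.05 for those lowered by less. Of the 66 genes lowered 4-fold or more, 4 were called lower and 2 higher. Their median was -0.23, and -0.19 without DMSO replicate 1, and all IS141 libraries lay below DMSO replicates 2 and 3 for 21 of them (31.8%, beside 20.8% of all genes tested) and above both for 8 (12.1%, beside 20.2%).

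DMSO replicate 1 weighed heavily on the raised classes. In the class raised 8-fold or more, the mean level was 0.10, 0.22 and 0.27 log2 CPM in IS141 replicates 1, 2 and 3, against 0.67, -0.65 and -0.61 log2 CPM in DMSO replicates 1, 2 and 3. The IS141 libraries therefore lay between DMSO replicate 1 and the other DMSO libraries. They were all above DMSO replicates 2 and 3 for 146 of the 222 genes (65.8%, beside 20.2% of all genes tested), while DMSO replicate 1 was above all IS141 libraries for 110 of them (49.5%, beside 37.5% of all genes tested). Without DMSO replicate 1 the class held 90 genes called higher (40.5%, beside 7.27% of the same 15908 genes) and 0 lower, with a median log2 fold change of 0.94. Without DMSO replicate 2 it held 14 higher and 5 lower, with a median of 0.08, beside 475 higher and 394 lower among all genes tested. Without DMSO replicate 3 it held 19 higher and 9 lower, with a median of 0.04, beside 841 higher and 760 lower among all genes tested. Leaving out IS141 replicate 2 gave 17 higher and 0 lower, beside 375 and 188 among all genes tested, and IS141 replicate 3 14 and 0, beside 494 and 304.

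The same order held in the next classes. For genes raised 4- to 8-fold, the IS141 libraries averaged 0.97, 1.02 and 1.03 log2 CPM, against 1.24, 0.58 and 0.57 log2 CPM in DMSO replicates 1, 2 and 3, and without DMSO replicate 1 100 genes were called higher (36.5%) and 0 lower. For genes raised 2- to 4-fold the IS141 libraries averaged 1.77, 1.76 and 1.76 log2 CPM, against 1.85, 1.52 and 1.52 log2 CPM in the DMSO libraries. Without DMSO replicate 1, 226 of these were called higher (22.6%) and 13 lower. The count of 113 higher was 67 without DMSO replicate 2, beside 475 higher among all genes tested. It was 69 without IS141 replicate 2 or IS141 replicate 3, beside 375 and 494 higher among all. The 10 lower were 24 without DMSO replicate 3, beside 760 lower among all genes tested.

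The class lowered 2- to 4-fold showed another order, in which DMSO replicate 1 went with its own group. For the genes lowered 2- to 4-fold by glutamate in this way the mean level was 2.32, 2.28 and 2.31 log2 CPM with IS141, against 2.41, 2.41 and 2.39 log2 CPM with DMSO. All 3 IS141 libraries lay below DMSO replicates 2 and 3 for 354 of these 903 genes (39.2%, beside 20.8% of all genes tested), and DMSO replicate 1 was above all IS141 libraries for 441 (48.8%, beside 37.5% of all genes tested). The median was -0.13 with and without DMSO replicate 1. Without it 89 genes were called lower (9.86%, beside 4.88% of all genes tested) and 21 higher (2.33%, beside 7.27%). Without IS141 replicate 2 the 70 lower genes were 26, beside 188 lower among all genes tested. Averaged over the class, DMSO replicate 1 lay 0.01 above the mean of DMSO replicates 2 and 3, while the IS141 libraries lay at -0.09, -0.12 and -0.09 from it. In the large class lowered by less than 2-fold these distances were -0.05, -0.07 and -0.05 for the IS141 libraries and -0.03 for DMSO replicate 1, which there lay on the IS141 side. What sets DMSO replicate 1 apart was not tested.

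**Figure D4:**
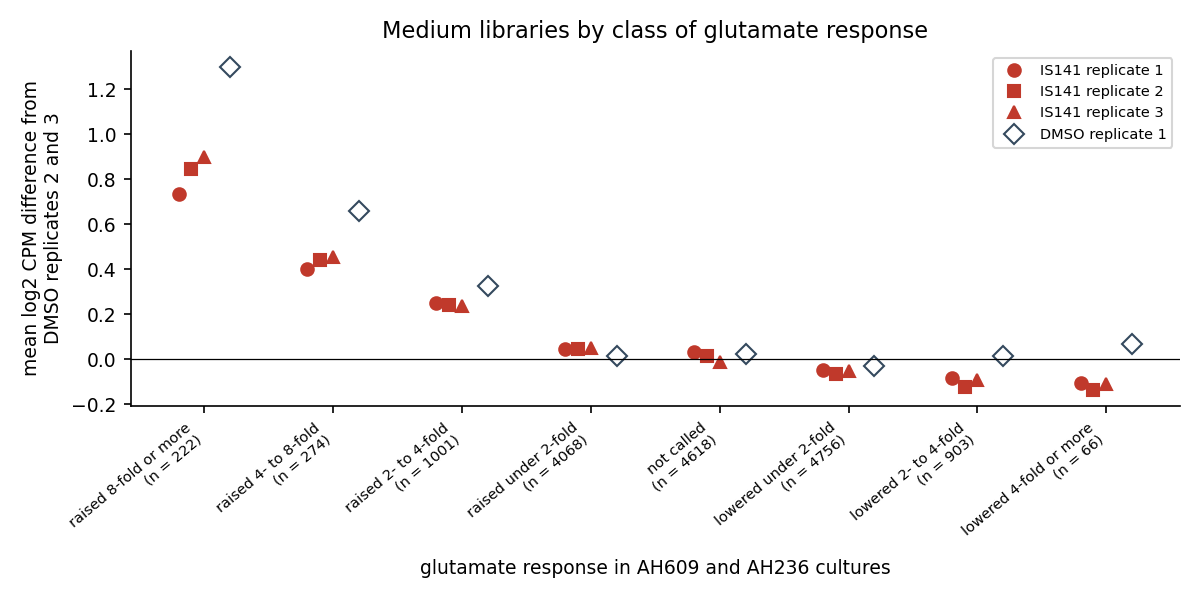
For each class of glutamate response in AH609 and AH236 cultures (horizontal axis, with the number of genes), points give the mean log2 CPM difference of a medium library from the mean of DMSO replicates 2 and 3. In the strongest raised class the IS141 libraries (red) lie at 0.74, 0.85 and 0.90 and DMSO replicate 1 (open diamond) at 1.3, while in the class lowered 2- to 4-fold the IS141 libraries lie below 0 and DMSO replicate 1 at 0.01.

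A comparison without any DMSO library was made by setting IS141 in medium against the mean of AH609 and AH236 in medium. IS141 raised 499 genes (3.14%) and lowered 620 (3.9%) relative to these agents, or 7.03% of the genes tested. Falls were thus more numerous, but rises were larger, since 53 rises and 0 falls reached 2-fold. Scaling by library totals turned the order of the counts, to 833 higher and 293 lower, and left 57 rises and 0 falls of 2-fold or more. DMSO replicate 1 enters this comparison only through the shared spread and filter. Without it the counts were 1106 (6.86%) for rises and 1148 (7.12%) for falls, in all 14%, of which 99 rises and 3 falls reached 2-fold. The count of 1119 genes was 400 without IS141 replicate 2, 482 without IS141 replicate 3, 712 without IS141 replicate 1, 696 and 720 without AH236 replicates 1 and 3, and 680 without AH609 replicate 2.

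IS141 was nearer to AH609 than to AH236 by the number of genes called. Against AH609 in medium 83 genes were higher and 96 lower with IS141 (1.13% of the genes tested), and against AH236 593 were higher and 657 lower (7.86%). Without DMSO replicate 1, which enters only through the shared spread and filter, the counts were 385 higher and 404 lower against AH609 (4.89%) and 1182 and 1142 against AH236 (14.4%). With all libraries, against AH609 10 rises and 0 falls reached 2-fold, and against AH236 100 rises and 3 falls did. Both share the IS141 libraries, and the difference between the counts itself was not tested. At an unadjusted p under 0.05 there were, with all libraries, 2274 genes against AH609 and 3536 against AH236.

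For this comparison glutamate classes were taken from the DMSO cultures, glutamate over medium, since those libraries do not enter it. Of 158 genes raised 8-fold or more by glutamate in DMSO cultures, 30 were higher with IS141 than with the other agents (19.0%) and 0 lower, beside 3.14% and 3.9% of all genes tested. Of 249 raised 4- to 8-fold, 34 were higher (13.7%) and 0 lower, and of 861 raised 2- to 4-fold, 70 were higher (8.13%) and 10 lower. The median log2 differences were 0.55, 0.28 and 0.13 in these classes. Among 720 genes lowered 2- to 4-fold, 48 were lower (6.67%) and 13 higher, with a median of -0.05. Without DMSO replicate 1, which also enters the glutamate response used for the classes, 95 of 262 genes raised 8-fold or more were higher (36.3%), 90 of 325 raised 4- to 8-fold (27.7%) and 159 of 856 raised 2- to 4-fold (18.6%), beside 6.86% of all genes tested. The medians were then 0.56, 0.27 and 0.12 for the raised classes and -0.07 for the class lowered 2- to 4-fold. These classes were set against the mean of both agents and not against each alone, and most of their genes were not called.

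The comparison of IS141 with DMSO under glutamate shares no library with that in medium. In it 647 genes were higher (4.07%) and 699 lower (4.39%), or 8.46% of the genes tested. Of the 713 genes higher with IS141 in medium, 229 were also higher under glutamate (32.1% of the medium list and 35.4% of the glutamate list, beside 4.07% of all genes tested), and 2 were lower. Of the 556 lower in medium, 153 were also lower under glutamate (27.5% and 21.9% of the lists, beside 4.39% of all genes tested), and 6 were higher. Without regard to calls, 616 of the 713 higher genes (86.4%, beside 48.3% of all genes tested) had a positive fold change under glutamate, and 494 of the 556 lower genes (88.8%, beside 51.7%) a negative one. These were 904 of 1157 (78.1%, beside 47.9%) and 648 of 776 (83.5%, beside 52.1%) without DMSO replicate 1.

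For the genes called in medium, the median change was smaller under glutamate. Genes higher in medium had a median log2 fold change of 0.17 under glutamate and 0.35 in medium, and genes lower in medium one of -0.16 under glutamate and -0.29 in medium. The medium values are those by which the genes were called, so a smaller median in other libraries can follow from the choice. The step between the medians was not tested. Over the genes called in each comparison by itself, the median log2 change in either direction was 0.30 under glutamate and 0.32 in medium. These medians were 0.27 and 0.35 without DMSO replicate 1. Genes higher in medium then had a median of 0.125 under glutamate and 0.446 in medium, and genes lower in medium -0.145 and -0.285. Without DMSO replicate 1, which enters here through the medium lists and the shared spread, the comparison under glutamate called 15% of the genes tested, 7.39% higher and 7.64% lower. Then 369 of 1157 genes higher in medium (31.9%) and 288 of 776 lower (37.1%) were called in the same direction under glutamate, and 30 and 14 in the opposite one. With the compared groups fitted alone, 28 of the 62 genes called in medium were called in the same direction, beside 382 of 1269 in the shared fit. Without IS141 replicate 2 in medium it was 193 of 563. The count was 216 and 223 without IS141 replicates 1 and 2 in glutamate, and 219 and 234 without DMSO replicates 1 and 2 in glutamate. For the fits without a glutamate library the total called in medium was not counted.

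**Figure D5:**
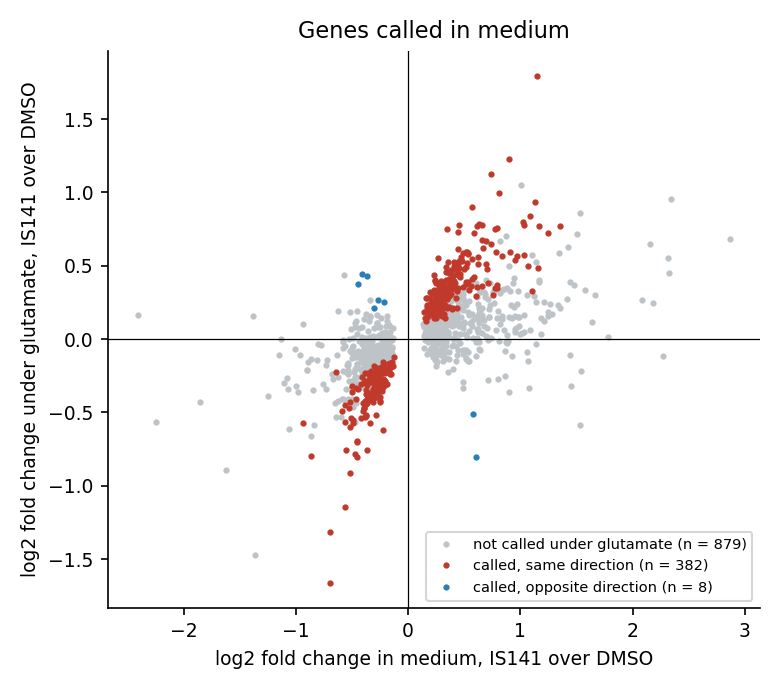
Log2 fold change of IS141 over DMSO in medium (horizontal) and under glutamate (vertical) for the 1269 genes called in medium. The 382 genes called in the same direction in glutamate are red, the 8 called in the opposite direction blue and the rest grey, and most points lie in the quadrants of equal sign.

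Whether the effect of IS141 differed between glutamate and medium was tested for each gene as an interaction. It passed for 124 genes, or 0.779% of the genes tested, of which 35 had a higher and 89 a lower effect under glutamate. Without DMSO replicate 1 there were 742 (4.6%), of which 201 were higher and 541 lower. At an unadjusted p under 0.05 there were 1580 with all libraries. Among the 4 genes given by ID, ENSRNOG00000020009 passed, with a log2 fold change over DMSO of 0.27 ± 0.16 (SE; edgeR adjusted p = 0.337) under glutamate and a difference between the effects of -1.82 ± 0.25 (SE; adjusted p = 0.0014). For ENSRNOG00000016163, ENSRNOG00000051572 and ENSRNOG00000004731 the adjusted p-values of the difference were 0.123, 0.123 and 0.12, and without DMSO replicate 1 0.00112, 0.107 and 0.00038. All 4 genes were chosen for their large changes in medium, which enter the difference, so part of it can follow from the choice.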

How the data were processed

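Raw counts per gene were used as deposited. Per the submitters' processing notes, bcl2fastq, cutadapt 2.3, FastQC 0.11.8, STAR 2.7.8a, RSEM 1.3.3 and the build Rnor_6.0 were named. Their roles, the annotation and strandedness are not stated in the labels or headers. Since RSEM estimates counts, these whole numbers may be rounded estimates, and genes with near-identical copies or overlaps are uncertain. Per the labels' protocols, RNA came from a column kit and libraries from a directional kit.

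Of 32754 IDs, 15908 passed edgeR's filter (filterByExpr, minimum count 10). Counts were scaled by TMM and fitted with edgeR 4.0.16 (R 4.3.3) as 1 mean per group over all 24 libraries, of 22509400 to 35496447 counts each. Adjusted p-values are Benjamini-Hochberg over all genes tested. No pair of libraries was identical. Alternatives used limma 3.58.1 and DESeq2 1.42.0, other scalings, filters and sets of libraries. Of these, limma and DESeq2 were tested on simulated data with the main fit. CPM use TMM-scaled library sizes.

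The comparisons, the classes and the gene lists were chosen with earlier results of these data known. The rule for named genes asked for a symbol, and 0 IDs had one, so the 2 largest rises and 2 largest falls among genes meeting its other conditions are given by ID, and were chosen after their values were seen. For the same reason 48 gene lists of 854 genes, which held cell type markers, were not used here.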

Additional observations from a re-analysis of the deposited data

Results flagged for a closer look

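The effect of IS141 on ENSRNOG00000020009 differed between glutamate and medium, by -1.82 on the log2 scale (edgeR interaction, adjusted p = 0.0014), and by -2.08 without DMSO replicate 1 (adjusted p = 5.64e-05). Its level was 1445 to 1550 CPM with IS141 under glutamate, against 1158 to 1362 CPM with DMSO, and 31.1 to 43.1 CPM with IS141 in medium, against 6.57 to 11.1 CPM with DMSO. The gene was chosen for its large rise in medium, and the same medium libraries enter the difference. Part of the difference can therefore follow from the choice.

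The same test of the difference between the effects passed for 124 genes in all, and for 742 without DMSO replicate 1, which enters the medium side of the contrast.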

How the results depend on the processing

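The counts of genes called were 1269 for IS141 against DMSO in medium, 1119 for IS141 against AH609 and AH236, and 382 for genes called in the same direction in both media. RLE size factors, library totals, no filter, DESeq2 and the replicate block kept each within 1.5 times, at 1017 to 1412, 906 to 1369 and 292 to 474. limma-voom with sample quality weights gave 2346, 2962 and 766. Fitting only the groups compared gave 62 (2106 at an unadjusted p under 0.05), 2365 and 28, and only the 12 medium libraries 670 and 533. Chosen after seeing the data, the medium libraries without DMSO replicate 1 gave 2029 and 2376, and the compared groups without it 1848 for the first. Leaving out 1 library gave 563 to 1933, 400 to 2254 and 193 to 657, lowest without IS141 replicate 2 and highest without DMSO replicate 1 each time. In medium, without IS141 replicate 2 or with the compared groups alone, 66.6% and 74.2% of called genes were higher, against 56.2%. Rises of 2-fold or more ranged from 35 to 228 and falls from 7 to 45 when 1 library was left out. The cause of these shifts was not tested. The 4 genes given by ID kept their direction in every alternative run, and 4 of their values lost the call. They were chosen for groups that did not overlap and for calls with and without DMSO replicate 1. A kept direction therefore largely follows from the choice. Same-numbered libraries did not deviate together (r = -0.0709, -0.0139 and -0.00232 across genes), none correlated best with its own number, and with the replicate block 1197 genes were called. The gene lists and marker sums could not be run without gene symbols.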
